A study of Oryza sativa with 6 samples.

Results

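The genes of phenylpropanoid and flavonoid biosynthesis were followed in the embryos of a giant embryo rice line and of its matching line with embryos of normal size. They were 120 of the 61955 genes in the deposited table. The deposited KEGG annotation places 314 genes in the maps for phenylpropanoid biosynthesis (map00940) or flavonoid biosynthesis (map00941). Left out were genes that KEGG also places in starch and sucrose metabolism (map00500) or in 4 maps of amino acid metabolism (map00400, map00350, map00260 and map00270). Genes with the Pfam domain of haem peroxidases, cytochromes P450, aldehyde dehydrogenases or alcohol dehydrogenases were left out as well, so the members do not include most peroxidases or the P450 hydroxylases of the pathway. Of the 120 members, 65 lie in the phenylpropanoid map only, 29 in the flavonoid map only and 26 in both, and 3 are new genes that the authors' assembly added (MSTRG names). The rule names only annotation, but it was set with earlier results of these data known.

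The phenylpropanoid pathway turns phenylalanine into cinnamic acid and then into coumaroyl-CoA, from which plants make lignin, hydroxycinnamic acid esters and amides, and flavonoids. Phenylalanine ammonia-lyase (PAL) opens the pathway and 4-coumarate:CoA ligase (4CL) makes the CoA thioester. Acyltransferases pass the hydroxycinnamoyl group to shikimate, quinate or amines, and caffeoyl-CoA O-methyltransferase and cinnamoyl-CoA reductase (CCR) lead towards the lignin monomers. Chalcone synthase (CHS) and chalcone isomerase (CHI) open the flavonoid branch, whose products are hydroxylated, reduced, methylated and glycosylated. In cereals the main flavonoids of non-pigmented tissue are flavones such as tricin, and the proanthocyanidins of coloured grains lie in the seed coat, not in the embryo.

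RNA came from embryos on day 15 post flowering, with 3 samples of NIL-D (EG) and 3 of NIL-X (CG). NIL-D carries the giant embryo allele of the cultivar Dapeimi and is labelled CMP-/- in its genotype and GED in its titles, and NIL-X carries the homologous segment of the normal embryo line 187R and is labelled wild type. Both lines were derived from 1 cross, 187R with Dapeimi, by repeated self-pollination, and they grew in 3 field plots that each held both lines, without further treatment. Each line is a single near-isogenic line, so the Dapeimi allele, the rest of its segment and any other remaining difference between the lines cannot be told apart.

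Values are TPM, transcript levels divided by gene length and scaled to 1 common total, so genes can be compared per length. With a total of 1000000 in every column, the values hold no read counts. The paper gives its clean data in total and as a minimum per sample, so the reads behind each value are unknown. No interval for counting error was computed, and a gene listed at 0 cannot be called absent. Of the members, 39 were listed at 0 TPM in all 6 samples and 34 more had a mean under 0.5 TPM, with no single value above 0.92 TPM. The remaining 47 members passed this minimum and were tested with the other genes that passed it, 21500 in all. Their mean level was from 0.5 to 5 TPM in 19 members, from 5 to 50 TPM in 22 and higher in 6.

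Several facts of the whole libraries stand beside all results that follow. NIL-D replicate 3 held the lowest value of the 6 samples in 43.3% of all tested genes and in 15 of the 47 tested members (31.9%), and its 10 most abundant genes held 21.8% of all TPM, against 15.5 to 18.8% in the other 5 samples. The leading embryo markers stood high in all samples but were not even between the lines. The most abundant, a 63 kDa globulin-like gene (OsZS_03G0454000), had 30550, 29100 and 41113 TPM in NIL-D, against 27262, 28160 and 20562 TPM in NIL-X, without overlap. Late embryogenesis abundant protein 19 (OsZS_05G0432800) had 3759, 3913 and 7629 TPM in NIL-D, against 8456, 6016 and 8391 TPM in NIL-X, with overlap. Oleosin 16 kDa (OsZS_04G0421400), a coat protein of oil bodies, had 20547 to 25764 TPM, and the 53 genes of the embryo list summed to 85222 to 106109 TPM in NIL-D and to 82398 to 91947 TPM in NIL-X. The endosperm list, storage proteins and starch genes of the neighbouring tissue, had 35 of its 41 genes at a mean of at least 0.5 TPM and 2 at 0. Its sum was 42192 to 42328 TPM in NIL-D, against 41821 to 53352 TPM in NIL-X, most of it from 1 gene (OsZS_08G0025200). Without this gene, a step that was not planned, the sum was 4818 to 10540 TPM in NIL-D, against 8123 to 18828 TPM in NIL-X. In both sums the ranges overlapped and the 2 highest samples were NIL-X replicates 2 and 3. The green tissue list of 19 genes summed to 230.2 to 556 TPM in NIL-D and to 428 to 630 TPM in NIL-X, nearly all of it 1 gene of the Rubisco small subunit, and 4 of its genes were at 0. The list of late seed coat flavonoid steps, 15 genes with 3 at 0, summed to 204 to 226 TPM in NIL-D and to 219.8 to 250.5 TPM in NIL-X, mostly from 1 gene annotated as a putative anthocyanidin reductase (OsZS_07G0413200). NIL-D replicate 3 held the highest embryo sum (106109 TPM) and the lowest sums for green tissue (230.2 TPM) and seed coat steps (204 TPM). It also held the lowest endosperm sum without OsZS_08G0025200 (4818 TPM), while its full endosperm sum (42302 TPM) lay within the range of the other samples. The part of such markers in the results on the members was not tested, and in these bulk samples fewer cells of a type and less RNA per cell cannot be told apart. The annotation describes the gene with the number given for the mapped locus, OsZS_07G0416900, as a sulfotransferase, and it had 0.10, 0.13 and 0.14 TPM in NIL-D, against 0.09, 0.04 and 0.68 TPM in NIL-X. The allele is a base deletion, so this level does not check the labels.

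Between the lines, 1 of the 47 tested members was a DEG, a putrescine hydroxycinnamoyltransferase-like gene that was lower in NIL-D. DEGs were called with limma on log2(TPM + 1) at a Benjamini-Hochberg adjusted p below 0.05 with a log2 fold change of at least 1 in either direction. By this rule 138 of all 21500 tested genes were called (0.642%), 57 with higher levels in NIL-D (0.265%) and 81 with lower levels (0.377%). No member was called higher. At an unadjusted p below 0.05 from the same limma fit, 6 members were higher and 6 lower, together 25.5% of the tested members, against 15.6% of all tested genes. The median log2 fold change was -0.16 over the 47 members and -0.15 over all tested genes, which are close in this fit. At a mean of at least 5 TPM they were 0.03 over 28 members and -0.14 over all genes. Of the members, 20 had a positive and 27 a negative log2 fold change, and 69.9% of all tested genes had a negative one. The samples of a line were separate harvests, by the paper's sampling 1 from each plot, and both lines shared the plots. The fit did not pair samples by plot, and the p-values measure the spread among these 6 samples only.

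The values of both lines did not overlap in 15 of the 47 tested members (31.9%), against 24.3% of all tested genes. All NIL-D values lay above those of NIL-X in 6 members (12.8%, against 4.53% of all tested genes) and below them in 9 members (19.1%, against 19.7%). With 2 samples against 3 an overlap is less likely by construction, and these settings were added after seeing the data. Without each sample in turn, the count was 18 to 23 members (38.3 to 48.9%), against 28.7 to 46.6% of all tested genes. Without NIL-X replicate 3 the share was 48.9%, against 35.7%, and without NIL-X replicate 1 it was 38.3%, against 28.7%. Without NIL-D replicate 3, the setting with the highest share of all genes, the lines did not overlap in 22 members (46.8%, against 46.6%), 10 with NIL-D above (21.3%, against 15.9% of all genes) and 12 with NIL-D below (25.5%, against 30.7%). The plot of fitted differences gives all 47 tested members by enzyme.

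**Figure D1:**
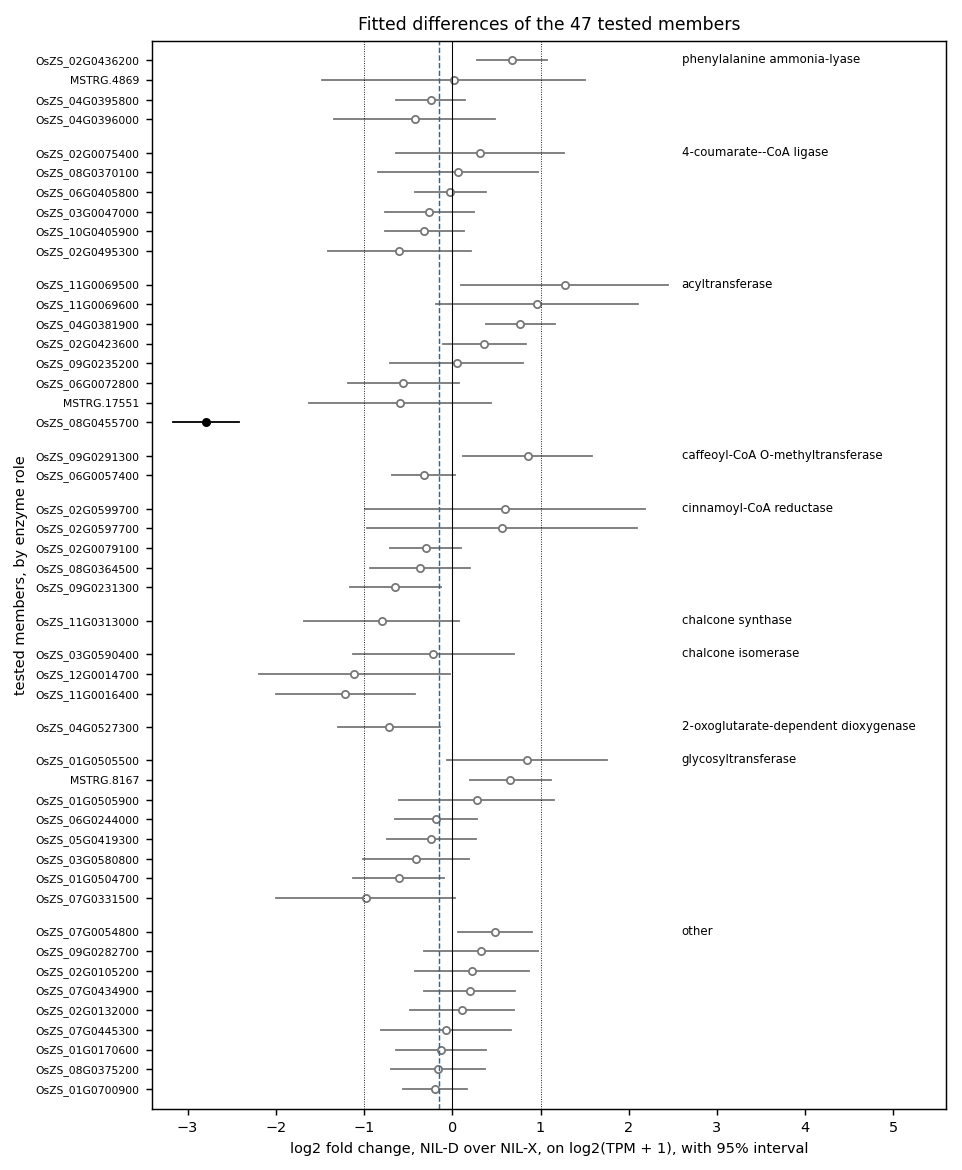
Log2 fold change of NIL-D over NIL-X on log2(TPM + 1) (x axis) with its 95% interval for each of the 47 tested members (y axis), grouped by enzyme role. The filled point is the 1 DEG, OsZS_08G0455700 at -2.79, open points are members that were not called, dotted lines mark -1 and 1, and the dashed line marks the median of all tested genes, -0.15.

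PAL, the entry to the pathway, was carried in these embryos by 3 of its 7 members. OsZS_02G0436200 on chromosome 2, 2759 bp long, was the most abundant of them. Replicates 1 to 3 of NIL-D had 136, 122 and 142 TPM, against 68.7, 82.9 and 101 TPM in NIL-X. All NIL-D samples lay above all NIL-X samples, with means of 133 ± 10.3 TPM in NIL-D, against 84.1 ± 16.0 TPM in NIL-X (SD, n = 3 each). The log2 fold change was 0.67 (SE 0.17, 95% interval 0.27 to 1.07), and the limma adjusted p of 0.169 did not pass. OsZS_04G0395800 on chromosome 4 did not show this order. It had 48.7, 52.5 and 52.8 TPM in NIL-D, against 61.6, 49.9 and 73.9 TPM in NIL-X, with overlapping lines and a log2 difference of -0.25 (SE 0.16, adjusted p = 0.494 by limma). Within a sample, the ratio of OsZS_04G0395800 to OsZS_02G0436200 was 0.359, 0.431 and 0.372 in NIL-D, against 0.896, 0.602 and 0.735 in NIL-X. The ratios of these 2 genes did not overlap, a pattern that was chosen after its values were seen and was not tested. OsZS_02G0436200 alone did not overlap either, so the ratio is not a separate result, and it does not describe the other PAL members.

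The third abundant PAL, the new gene MSTRG.4869, differed widely among the samples of NIL-D. It was chosen after its values were seen. It had 21.5, 30.4 and 125 TPM in NIL-D, against 31.2, 50.2 and 51.5 TPM in NIL-X. Only NIL-D replicate 3 was high, where MSTRG.4869 made up 38.5% of the summed PAL level, against 10.4 and 14.8% in the other NIL-D samples and 19.0, 26.9 and 22.5% in NIL-X. The fitted log2 difference was 0.015 (SE 0.62, adjusted p = 0.994 by limma) and was -0.73 without NIL-D replicate 3. Summed over the 7 PAL members, the level was 207, 206 and 324 TPM in NIL-D, against 164, 187 and 228 TPM in NIL-X, and the lines overlapped. The tested OsZS_04G0396000, next to OsZS_04G0395800, stayed at 0.84 to 3.47 TPM in NIL-D, against 1.96 to 3.34 TPM in NIL-X. The 2 other PAL genes beside OsZS_02G0436200, OsZS_02G0436300 and OsZS_02G0436500, were listed at no more than 0.12 and 0.90 TPM. The name of MSTRG.4869 gives no chromosome, and its ratio to OsZS_02G0436500 was 1073, 169 and 139 in NIL-D. In NIL-X this ratio was 164, 167 and 151, and the value of 1073 came where OsZS_02G0436500 was at 0.02 TPM. Whether both take up reads of 1 gene was not tested, so OsZS_02G0436500 cannot be called near silent. Reads of close PAL copies may be shared among them, and the values of single PAL genes are uncertain to that extent.

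The 4CL members overlapped between the lines in their summed level, 45.8 ± 1.34 TPM in NIL-D, against 49.2 ± 2.76 TPM in NIL-X (SD, n = 3 each). Of the 9 members, 6 were tested and none was called, and none passed even at an unadjusted p below 0.05 from limma. OsZS_03G0047000, annotated as 4CL-like 1, was the most abundant at 21.5, 22.8 and 13.6 TPM in NIL-D, against 24.7, 20.5 and 23.4 TPM in NIL-X (log2 fold change -0.26, adjusted p = 0.568 by limma). OsZS_06G0405800, annotated as 4CL 4, had 11.1, 12.3 and 12.8 TPM in NIL-D, against 11.6, 15.1 and 10.5 TPM in NIL-X. The lines overlapped in both genes. For OsZS_06G0405800 the log2 fold change of -0.02 (SE 0.17, adjusted p = 0.954 by limma) had the other sign, 0.14, under median-ratio rescaling and under quantile normalization. The 6 fitted log2 fold changes ran from -0.60 to 0.31.

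The acyltransferases, which join hydroxycinnamoyl groups to acids or amines, held the DEG and also the members with the largest positive differences. This group had 20 members, of which 7 were listed at 0 and 8 were tested. OsZS_08G0455700 on chromosome 8, 1858 bp long, has putrescine hydroxycinnamoyltransferase 1 as its Swiss-Prot hit, an enzyme that forms hydroxycinnamoyl putrescine amides in rice. It had 5.01, 7.33 and 6.28 TPM in NIL-D, against 46.98, 51.5 and 46.9 TPM in NIL-X. Both lines were tight and far apart, with means of 6.21 ± 1.16 TPM in NIL-D, against 48.5 ± 2.65 TPM in NIL-X (SD, n = 3 each), so the mean in NIL-X was 7.81 times that in NIL-D. The log2 fold change was -2.79 (SE 0.16, 95% interval -3.17 to -2.42, adjusted p = 0.0013 by limma). It was called in all 13 alternative settings, with log2 fold changes from -2.96 to -2.62 and limma adjusted p from 0.0014 to 0.0199.

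The hydroxycinnamoyltransferase OsZS_04G0381900 was the most abundant acyltransferase and went the other way. Its Swiss-Prot hit is hydroxycinnamoyltransferase 1, of the family that forms the shikimate and quinate esters on the way to lignin. It had 263, 247 and 202 TPM in NIL-D, against 118, 142 and 155 TPM in NIL-X, so every NIL-D sample lay above every NIL-X sample. The mean level was 237 ± 31.3 TPM in NIL-D, against 138 ± 18.7 TPM in NIL-X (SD, n = 3 each). The log2 fold change was 0.77 (SE 0.16, 95% interval 0.38 to 1.16), and the gene was not called (limma adjusted p = 0.127, from 0.0353 to 0.416 over the alternatives). The lowest of these p-values came without NIL-D replicate 3, where the log2 fold change of 0.88 was still under the limit for a call.

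A pair of neighbouring short gene models on chromosome 11 shared a pattern across samples. OsZS_11G0069500 (327 bp) and OsZS_11G0069600 (645 bp) have putrescine hydroxycinnamoyltransferases 1 and 2 as their hits, and the second was chosen after its values were seen. OsZS_11G0069500 had 75.3, 29.2 and 27.8 TPM in NIL-D, against 26.1, 9.01 and 16.3 TPM in NIL-X. The lines did not overlap, but the gap was small beside the spread within NIL-D (log2 fold change 1.27, SE 0.49, 95% interval 0.10 to 2.45, adjusted p = 0.294 by limma). OsZS_11G0069600 had 49.9, 21.7 and 18.0 TPM in NIL-D, against 16.9, 7.13 and 19.4 TPM in NIL-X, where the lines overlapped (log2 fold change 0.96, SE 0.48, adjusted p = 0.381 by limma). The ratio of the first to the second gene was 1.51, 1.35 and 1.54 in NIL-D and 1.55, 1.26 and 0.839 in NIL-X, and NIL-D replicate 1 was highest in both. Such short neighbouring models may be parts of 1 gene, and their separate values are uncertain.

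Summed over the 20 acyltransferase members, the level was 415, 327 and 267 TPM in NIL-D, against 227, 233 and 252 TPM in NIL-X. All NIL-D sums lay above all NIL-X sums, carried by OsZS_04G0381900 and the pair on chromosome 11 against the opposite change of OsZS_08G0455700. Of the 8 tested acyltransferases, 5 had a positive and 3 a negative log2 fold change. OsZS_06G0072800, another putrescine hydroxycinnamoyltransferase-like gene named after its values were seen, had 0.21, 0.35 and 0.27 TPM in NIL-D, against 1.64, 0.65 and 0.51 TPM in NIL-X. It lay lower in all NIL-D samples but near the minimum level for testing (log2 fold change -0.55, adjusted p = 0.362 by limma).

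**Figure D2:**
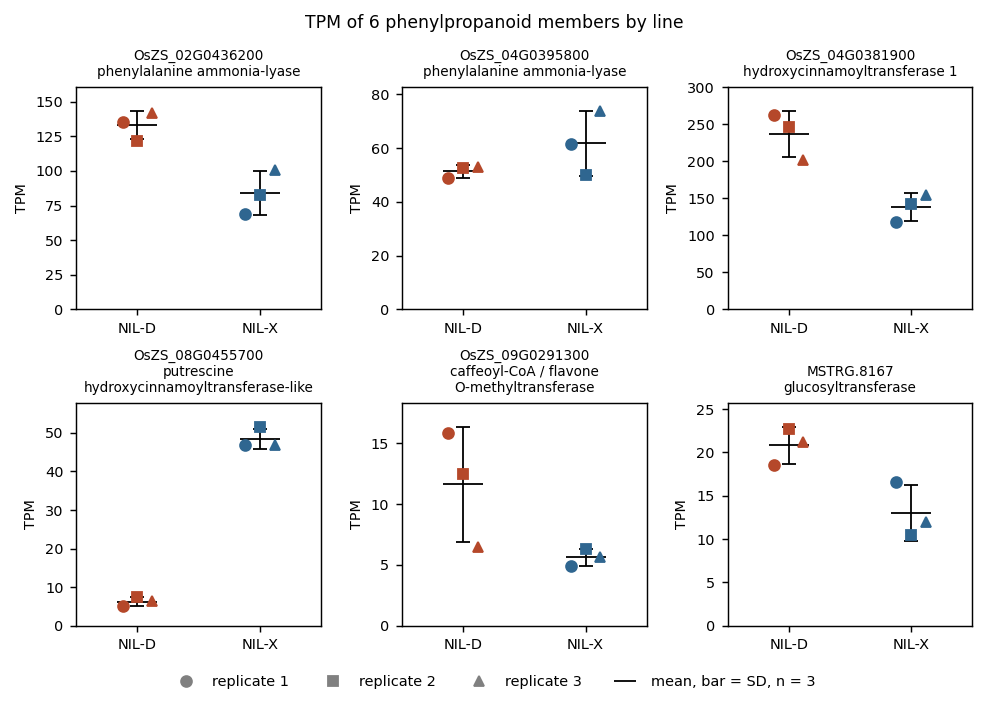
TPM (y axes, each starting at 0) of 6 members in NIL-D and NIL-X (x axes), with 1 point per replicate, the mean and its SD (n = 3 each). OsZS_08G0455700 is at 5.01 to 7.33 TPM in NIL-D and at 46.9 to 51.5 TPM in NIL-X; of the other 5 genes only OsZS_04G0395800 has overlapping lines, and none of these 5 was called.

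Of the caffeoyl-CoA O-methyltransferases, 1 gene was higher in all NIL-D samples without passing the test. OsZS_09G0291300 on chromosome 9, 1161 bp long, has tricin synthase 1 (ROMT-15) as its Swiss-Prot hit, a rice enzyme that methylates flavones and caffeoyl-CoA. It had 15.8, 12.5 and 6.5 TPM in NIL-D, against 4.92, 6.32 and 5.65 TPM in NIL-X. NIL-D replicates 1 and 2 lay well above NIL-X, but NIL-D replicate 3 exceeded the highest NIL-X sample only slightly. The mean level was 11.6 ± 4.72 TPM in NIL-D, against 5.63 ± 0.70 TPM in NIL-X (SD, n = 3 each), with a log2 fold change of 0.85 (SE 0.31, 95% interval 0.12 to 1.59, adjusted p = 0.273 by limma). Without NIL-D replicate 3 it was called (log2 fold change 1.19, SE 0.17, adjusted p = 0.0303 by limma), the only one of the 13 alternatives where it was, with adjusted p up to 0.622 in the others. The call by this test thus turns on 1 library. The paper lists this gene among its candidate DEGs, and its methods name edgeR, a test on counts that was not used here. OsZS_06G0057400, annotated as caffeoyl-CoA O-methyltransferase 1, the step from caffeoyl-CoA to feruloyl-CoA, had 24.6, 23.3 and 29.1 TPM in NIL-D, against 31.1, 29.0 and 37.1 TPM in NIL-X. The lines overlapped narrowly (log2 fold change -0.32, SE 0.15, adjusted p = 0.351 by limma). The summed level of the 3 members was 37.3 ± 2.73 TPM in NIL-D, against 38.2 ± 3.98 TPM in NIL-X, and both members annotated as other O-methyltransferases were listed at 0.

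CCR, which reduces hydroxycinnamoyl-CoA esters to aldehydes on the way to lignin, had 11 members, 5 of them tested and none called by limma, with 1 at an unadjusted p below 0.05 (15.6% of all tested genes). The most abundant, OsZS_02G0599700 (3423 bp), split the samples across the lines. It had 17.2, 4.98 and 18.0 TPM in NIL-D, against 4.83, 4.03 and 19.4 TPM in NIL-X. OsZS_02G0597700 (1288 bp), a nearby gene with the same hit that was chosen after its values were seen, had 10.9, 3.35 and 11.9 TPM in NIL-D, against 3.66, 2.18 and 12.8 TPM in NIL-X. Both genes were high in NIL-D replicates 1 and 3 and NIL-X replicate 3 and low in the other 3 samples. The ratio of the first to the second stayed between 1.32 and 1.85 in all samples, and the sum of both was 28.1, 8.33 and 29.8 TPM in NIL-D, against 8.49, 6.21 and 32.2 TPM in NIL-X. With such a spread within each line, the log2 fold changes of 0.60 (SE 0.66, 95% interval -0.99 to 2.18) and 0.57 (SE 0.64) had limma adjusted p of 0.685 and 0.690. These copies may share reads, and their separate values are uncertain. OsZS_08G0364500 had 10.3, 11.2 and 6.08 TPM in NIL-D, against 13.6, 10.6 and 11.3 TPM in NIL-X (log2 fold change -0.37, adjusted p = 0.481 by limma). OsZS_09G0231300 was low in all samples and lower in NIL-D, at 0, 0.26 and 0.36 TPM against 0.79, 1.15 and 0.70 TPM in NIL-X (log2 fold change -0.64, SE 0.22, adjusted p = 0.256 by limma).

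**Figure D3:**
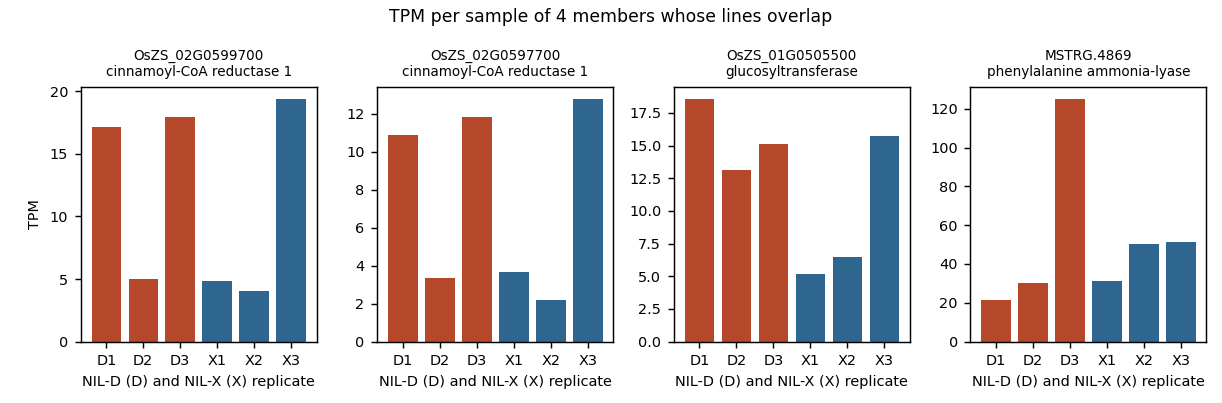
TPM per sample (y axes, bars from 0) of 4 members whose lines overlap, with NIL-D replicates (D1 to D3) and NIL-X replicates (X1 to X3) on the x axes. Both CCR genes are high in NIL-D replicates 1 and 3 and in NIL-X replicate 3, the glucosyltransferase OsZS_01G0505500 is high in all NIL-D samples and in NIL-X replicate 3, and MSTRG.4869 reaches 125 TPM in NIL-D replicate 3 alone.

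In the early steps of the flavonoid branch the 5 tested members, 1 CHS, 3 CHI and 1 flavanone 3-dioxygenase, had negative log2 fold changes in 5 of 5, as 69.9% of all tested genes had, and none was called by limma. Of the 5, 3 passed at an unadjusted p below 0.05, against 15.6% of all tested genes. NIL-D replicate 3 was the lowest of the 6 samples in 5 of 5 genes, and without it 4 of 5 differences were negative (61.3% of all tested genes). With median-ratio rescaling and with quantile normalization they were negative in 5 of 5, against 49.9 and 51.1% of all tested genes. Under median-ratio rescaling OsZS_03G0590400 counted as negative at only -0.034 (adjusted p = 0.979 by limma). This group of 5 was not part of the plan, and its genes are not replicates. The counts therefore describe these genes only and were not tested. CHS condenses coumaroyl-CoA with malonyl-CoA, and of its 3 members only OsZS_11G0313000 (chalcone synthase 1, 1925 bp) was tested. It had 3.93, 4.51 and 1.45 TPM in NIL-D, against 6.04, 8.44 and 4.29 TPM in NIL-X. The lines overlapped at their edges (log2 fold change -0.80, SE 0.37, 95% interval -1.68 to 0.08, adjusted p = 0.351 by limma), and without NIL-D replicate 3 the log2 fold change was -0.44.

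The CHI members stood at unlike levels. OsZS_03G0590400, annotated as chalcone isomerase (1174 bp), the enzyme that closes the ring of the flavanone, was far more abundant than CHS and the dioxygenase on this scale per length. It had 424, 315 and 141 TPM in NIL-D, against 314, 296 and 316 TPM in NIL-X. The NIL-X samples were close to each other and the NIL-D samples spread on both sides of them (log2 fold change -0.21, SE 0.38, adjusted p = 0.812 by limma), and without NIL-D replicate 3 the sign turned (0.24). OsZS_11G0016400 (3339 bp) and OsZS_12G0014700 (1662 bp) share chalcone isomerase 3 as their hit, a type that in Arabidopsis assists CHS rather than acting as an isomerase. OsZS_11G0016400 had 13.7, 9.06 and 4.99 TPM in NIL-D, against 24.1, 17.5 and 22.8 TPM in NIL-X. OsZS_12G0014700 had 7.99, 6.22 and 1.61 TPM in NIL-D, against 10.3, 12.7 and 10.01 TPM in NIL-X. Both lay lower in every NIL-D sample, with log2 fold changes of -1.21 (SE 0.33, 95% interval -2.00 to -0.42) and -1.11 (SE 0.45), and neither passed (limma adjusted p = 0.191 and 0.312). Without NIL-D replicate 3 these were -0.87 and -0.57. Chromosomes 11 and 12 of rice share a duplicated segment, so reads of these genes may be split between them. Their sum was 21.7, 15.3 and 6.60 TPM in NIL-D, against 34.4, 30.2 and 32.8 TPM in NIL-X.

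Among the members, the dioxygenase and the later steps were near the limit of this table. OsZS_04G0527300, annotated as flavanone 3-dioxygenase 1, which leads to the dihydroflavonols, had 0.62, 0.64 and 0.12 TPM in NIL-D, against 1.17, 1.86 and 1.14 TPM in NIL-X. It was lower in all NIL-D samples, at a low level in both lines (log2 fold change -0.72, SE 0.24, 95% interval -1.30 to -0.14, adjusted p = 0.257 by limma). The other 3 members of its enzyme family were not tested, 2 of them listed at 0. Of the enzymes that lead to anthocyanidins and proanthocyanidins, the 1 member annotated as dihydroflavonol reductase was listed at 0, and none of the 5 anthocyanidin reductases and the 1 leucoanthocyanidin reductase reached the minimum level. The 5 anthocyanidin reductases among the members summed to 0.58, 0.56 and 0.32 TPM in NIL-D and to 0.82, 0.95 and 0.41 TPM in NIL-X. Genes outside the members with such an annotation stood higher. OsZS_07G0413200 had 160 to 192 TPM in NIL-D and 181 to 224 TPM in NIL-X, and OsZS_06G0430700 had 20.6 to 30.4 and 18.7 to 29.1 TPM.

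**Figure D4:**
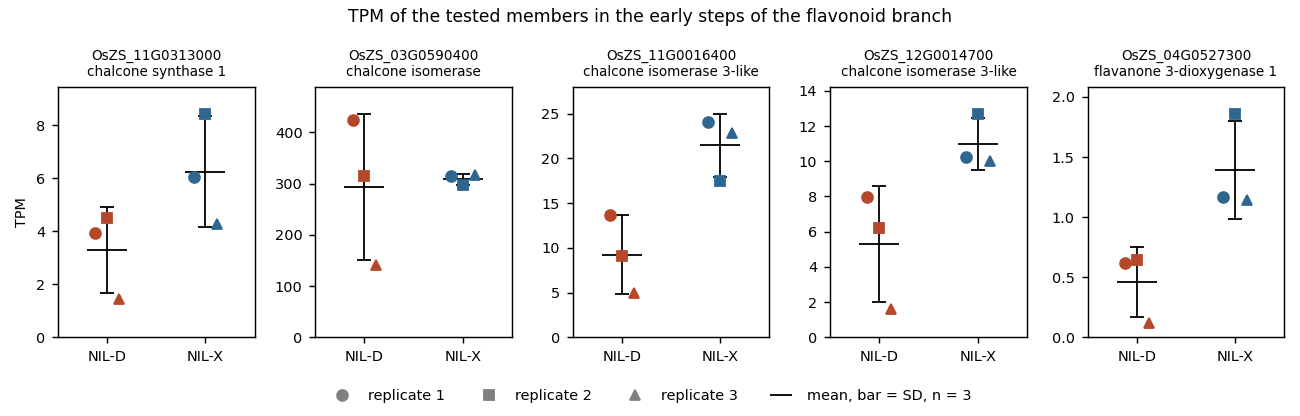
TPM (y axes, each starting at 0) of the 5 tested members in the early steps of the flavonoid branch in NIL-D and NIL-X (x axes), with 1 point per replicate, the mean and its SD (n = 3 each). NIL-D replicate 3 is the lowest sample in all 5 panels, both chalcone isomerase 3-like genes and the dioxygenase do not overlap between the lines, and none of the 5 was called.

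The glycosyltransferases, which attach sugars to flavonoids and other phenolics, differed in both directions. All 13 members were above 0 in some sample, and 8 were tested, 3 with a positive and 5 with a negative log2 fold change and none called by limma. At an unadjusted p below 0.05, 2 of the 8 passed, against 15.6% of all tested genes. The new gene MSTRG.8167 (1644 bp), with a flavonoid 3-O-glucosyltransferase 7 hit, had 18.5, 22.7 and 21.2 TPM in NIL-D, against 16.6, 10.5 and 11.98 TPM in NIL-X. It was higher in all NIL-D samples (log2 fold change 0.65, SE 0.19, 95% interval 0.20 to 1.11), but the limma adjusted p was 0.212. OsZS_07G0331500, annotated as a UDP-glycosyltransferase 88B1, had 3.15, 2.34 and 0.33 TPM in NIL-D, against 4.69, 4.39 and 3.64 TPM in NIL-X, and NIL-D replicate 3 lay far below the rest (log2 fold change -0.98, SE 0.42, adjusted p = 0.328 by limma). Without that sample the log2 fold change was -0.49.

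A group of glucosyltransferase genes close together on chromosome 1, with anthocyanidin 5,3-O-glucosyltransferase hits, was mixed within itself. OsZS_01G0505900 had 26.6, 27.5 and 10.3 TPM in NIL-D, against 14.4, 18.9 and 15.3 TPM in NIL-X (log2 fold change 0.28, adjusted p = 0.740 by limma). This value turned on single libraries, from 0.04 without NIL-D replicate 2 to 0.72 without NIL-D replicate 3 (adjusted p = 0.0533 by limma). OsZS_01G0505500 had 18.6, 13.1 and 15.1 TPM in NIL-D, against 5.15, 6.44 and 15.7 TPM in NIL-X, where NIL-X replicate 3 alone reached the level of NIL-D (log2 fold change 0.84, SE 0.38, adjusted p = 0.341 by limma, and 1.28 without NIL-X replicate 3). OsZS_01G0504700 was low, at 0, 0.31 and 0.39 TPM in NIL-D against 0.72, 0.82 and 1.05 TPM in NIL-X (log2 fold change -0.61, adjusted p = 0.271 by limma). OsZS_01G0505500 and OsZS_01G0504700 were chosen after their values were seen. These neighbours of 1 enzyme type did not share a direction.

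The members without one of these roles were led by 1 gene that is not a biosynthetic enzyme of the pathway. OsZS_07G0445300 is annotated as 1-Cys peroxiredoxin A, an antioxidant protein of maturing embryos and aleurone that KEGG places in the phenylpropanoid map. It had 2306, 3131 and 4559 TPM in NIL-D, against 3092, 3333 and 3725 TPM in NIL-X. The NIL-D samples spread on both sides of those of NIL-X (log2 fold change -0.07, SE 0.31, 95% interval -0.81 to 0.66, adjusted p = 0.925 by limma), and under median-ratio rescaling the sign turned (0.11). This gene made up 75.1% of the summed mean TPM of all members. Without it the members summed to 1382, 1157 and 996 TPM in NIL-D and to 1006, 1020.5 and 1133 TPM in NIL-X, with overlapping lines, and the 5 next members made up 63.2% of that rest. Its neighbour for 1-Cys peroxiredoxin B stayed below the minimum level.

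Of the other 36 such members, 22 were listed at 0, many of them berberine bridge enzyme-like genes. OsZS_08G0375200, with the KEGG entry of a peroxidase but no haem peroxidase domain, had 55.7, 50.1 and 31.6 TPM in NIL-D, against 51.5, 54.5 and 44.3 TPM in NIL-X (log2 fold change -0.16, limma adjusted p = 0.753, with the other sign, 0.015, under median-ratio rescaling). OsZS_07G0054800, with a peroxidase 13 hit and no such domain, had 12.5, 17.3 and 13.1 TPM in NIL-D, against 9.47, 11.4 and 8.85 TPM in NIL-X. It was higher in all NIL-D samples but not called (log2 fold change 0.48, SE 0.18, adjusted p = 0.278 by limma). The last member without overlap, OsZS_10G0405900, a 4CL-like 2 chosen after its values were seen, had 0.27, 0.47 and 0.30 TPM in NIL-D against 0.71, 0.77 and 0.55 TPM in NIL-X (log2 fold change -0.32, adjusted p = 0.444 by limma).

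The 194 genes of both maps that the choice left out were set beside the members. Of these, 83 were tested and none was called by limma, with 16 at an unadjusted p below 0.05, against 15.6% of all tested genes. Their median log2 fold change was -0.26, and the lines did not overlap in 18 genes (21.7%, against 24.3% of all tested genes), 3 with NIL-D above and 15 with NIL-D below (4.53 and 19.7% of all tested genes). These counts are near the shares over all genes. The peroxidases, 44 of 125 tested, summed to 848, 712 and 576 TPM in NIL-D and to 669.8, 714 and 792 TPM in NIL-X, with overlapping lines.

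Among these genes, the P450 that makes coumaric acid from cinnamic acid stood at like levels in both lines. The 2 abundant genes of this type, OsZS_02G0285200 and OsZS_05G0231000, averaged 107 and 76.0 TPM in NIL-D, against 102 and 73.4 TPM in NIL-X. OsZS_05G0387400, a P450 98A1 that hydroxylates coumaroyl esters, averaged 92.2 TPM in NIL-D, against 112 TPM in NIL-X (log2 fold change -0.28). OsZS_03G0011000, a P450 84A1 of the sinapyl branch, averaged 2.04 TPM in NIL-D, against 5.30 TPM in NIL-X (log2 fold change -0.98). The largest positive difference among the alcohol dehydrogenase-like genes was that of OsZS_04G0483600, a cinnamyl alcohol dehydrogenase 7, at 11.4 TPM in NIL-D, against 4.39 TPM in NIL-X (log2 fold change 1.17, adjusted p = 0.212 by limma). Lower in all NIL-D samples was the aldehyde dehydrogenase OsZS_01G0376800, with 1.98, 1.63 and 7.3 TPM in NIL-D, against 13.2, 13.8 and 13.4 TPM in NIL-X. Its log2 fold change of -1.85 (SE 0.43, adjusted p = 0.1475 by limma) was the largest in size among the tested genes left out. None of these genes was called in the reported fit, and they were chosen after their values were seen.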

How the data were processed

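RNA-seq libraries of rice embryos, 3 of NIL-D and 3 of NIL-X, were grouped by the strain in the labels. Per the methods, trimming was done by SeqPrep and Sickle, assembly by Cufflinks, mapping to ZS97RS3 (RIGW3.0) by TopHat and quantification by RSEM. The submitters' processing notes name Bowtie 0.12.2 and a mouse build, mm8, which was taken as an error. The authors deposited TPM with 2 decimals for each library (their methods speak of FPKM), beside their mean TPM of each line and, in other columns, gene lengths and annotation. TPM holds no counts, so the reads behind each value and the counting error are unknown, and values under the filter were not tested.

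Differences were tested in R 4.3.3 by limma 3.58.1, with lmFit and a trended eBayes on log2(TPM + 1). Genes needed a mean of at least 0.5 TPM, and p-values had Benjamini-Hochberg adjustment over all 21500 of them. A fold change on this scale understates the difference of low genes. On simulated data with independent noise, the test recovered most of the largest planted differences. The simulation held no deviation of a whole library, and its planted differences were larger than those of most members. It therefore does not show how often differences of the members' size are missed. The study names edgeR in its methods and DESeq in its results, which take counts and were not used. Enzyme roles and marker lists were read from the NR, Swiss-Prot, Pfam and KEGG hits in the table, whose description column is empty. Positions are chromosome numbers from the gene names, and no sequences were used here.

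Members named by rule are OsZS_09G0291300, every DEG, in each role the 2 with the highest mean TPM of at least 0.5, and the 6 members without overlap between the lines whose log2 fold changes were largest, in both directions. Any other member named, such as MSTRG.4869 or OsZS_04G0396000, was chosen outside this rule with its values known. The members and lists were chosen with earlier results of these data known. Alternatives were a pseudocount of 0.1, no filter, a mean of at least 5 TPM, quantile normalization, median-ratio rescaling, an untrended eBayes, a replicate block, the adjusted p alone, and dropping 1 sample at a time. Other steps used Python 3.11.15, pandas 2.3.3, numpy 2.4.6 and matplotlib 3.10.9.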

Additional observations from a re-analysis of the deposited data

How the results depend on the processing

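The count of called members was 1 in every setting except without NIL-D replicate 3, where it was 2, so that it ranged from 1 to 2 over the settings without 1 sample. The count among the other genes of both maps was 0, and ranged from 0 to 1 over those settings. The additional gene without NIL-D replicate 3 was OsZS_01G0376800, an aldehyde dehydrogenase (log2 fold change -2.37, limma adjusted p = 0.00246). In the reported fit its log2 fold change was -1.85 and it was not called. Over all genes, the calls numbered 138 in the reported fit, 153 with a pseudocount of 0.1, 149 without trend, 136 with median-ratio rescaling, 126 with quantile normalization, 93 without a filter, 57 at a mean of at least 5 TPM, and 36 to 561 without 1 sample, the highest without NIL-D replicate 3.

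The median log2 fold change of the tested members, -0.16, was -0.033 without a filter, 0.032 at a mean of at least 5 TPM, -0.021 with median-ratio rescaling and -0.038 with quantile normalization, and ran from -0.20 to -0.10 without 1 sample. Over all genes the median was -0.15 in the reported fit, -0.065 without a filter, -0.145 at a mean of at least 5 TPM, 0.00 with median-ratio rescaling and -0.008 with quantile normalization. The cause of these shifts was not tested.

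Of 347 values of 27 named members under the alternatives, 335 kept their direction and side of the threshold, 11 had the other sign and 1 passed the threshold (OsZS_09G0291300, above). The sign turned in OsZS_06G0405800 with median-ratio rescaling (0.14) and quantile normalization (0.14), and in OsZS_07G0445300 (0.11) and OsZS_08G0375200 (0.015) with median-ratio rescaling. Without 1 sample, log2 fold changes ran from -0.12 to 0.12 for OsZS_06G0405800, from -0.55 to 0.24 for OsZS_03G0590400, from -0.33 to 0.16 for OsZS_07G0445300, from -0.32 to 0.08 for OsZS_08G0375200 and from -0.73 to 0.51 for MSTRG.4869. None of these 5 members was called in any setting. The count of members without overlap between the lines was 15 (31.9%, against 24.3% of all tested genes). It was 18 to 23 without 1 sample (38.3 to 48.9%, against 28.7 to 46.6% of all tested genes).

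With the replicate block, 1 member, 0 of the other genes of both maps and 43 of all genes were called, and the median of the members was -0.16. The SE went from 0.49 to 0.21 for OsZS_11G0069500 and from 0.37 to 0.19 for OsZS_11G0313000, but from 0.16 to 0.19 for OsZS_04G0381900. None of these genes was called with the block. The deviations of samples with the same replicate number correlated at 0.02, 0.20 and 0.20, against -0.24 to 0.06 between different numbers, and the sources used here tie no number to a plot, so the numbers were not taken as pairs. The lack of read counts limits the members near 0.5 TPM most.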
